A study of Homo sapiens with 21 samples.

Results

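The 10 genes described here handle heme and iron: the heme oxygenases HMOX1 and HMOX2, the biliverdin reductases BLVRA and BLVRB, the ferritin chains FTH1 and FTL, the transferrin receptor TFRC, the iron exporter ferroportin (SLC40A1) and the iron regulatory proteins ACO1 and IREB2. They were found by symbol among 23368 listed genes, and all 10 had a value in every library and were tested. RNA was sequenced from hTERT-HPNE cells, a nontransformed human pancreatic line immortalized with telomerase. The 21 libraries formed 7 groups of 3 replicates: untreated cells (0 h), cells given 300 µM H2O2 for 4, 8 or 24 h, and cells given 400 ng/ml neocarzinostatin (NCS), a radiomimetic agent that breaks both strands of DNA, for 4, 8 or 24 h. H2O2 is an oxidant and damages DNA through oxidation. The treated cells had the medium exchanged at the time of treatment and the untreated cells were collected at 0 h, so that a change with treatment and a change with time in culture cannot be told apart in the comparisons with untreated cells, whereas H2O2 and NCS were compared at matched times.

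Heme oxygenases open the heme ring and release iron, carbon monoxide and biliverdin, which the biliverdin reductases reduce further. HMOX1 is the inducible enzyme and is a textbook target of the transcription factor NRF2 and of its competitor BACH1, and HMOX2 is the constitutive enzyme. Ferritin, a shell of heavy (FTH1) and light (FTL) chains, stores the iron, TFRC takes it up bound to transferrin, and ferroportin lets it out of the cell. When iron is scarce, the iron regulatory proteins bind iron-responsive elements, short RNA hairpins, which blocks translation of ferritin and ferroportin and protects the TFRC mRNA from decay. The libraries measured mRNA, so translation was not measured.

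These hairpins are shown because they divide the 10 genes by how the iron regulatory proteins act on them, at the 5′ end of the ferritin and ferroportin mRNAs and at the 3′ end of the TFRC mRNA. The pattern searched was a C, 5 bases of stem, the loop CAGTGN (N is any base) and 5 bases that pair with the stem by Watson-Crick or G-T pairs, on the transcript strand. It was present in transcripts of 290 of 19677 protein-coding genes (1.47%) and in 4 of the 10 genes here. Each is given 5′ to 3′ on the transcript strand, from the GENCODE v29 transcripts (GRCh38), with T for U and with the 6 bases of the loop in capitals.
FTH1 5′ UTR, exon 1, chr11:61967575-61967601, minus strand: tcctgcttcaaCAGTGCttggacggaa
FTL 5′ UTR, exon 1, chr19:48965336-48965362, plus strand: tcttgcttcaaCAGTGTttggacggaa
SLC40A1 5′ UTR, exon 1, chr2:189580662-189580688, minus strand: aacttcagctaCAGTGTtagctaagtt
TFRC 3′ UTR, chr3:196050980-196051006, minus strand: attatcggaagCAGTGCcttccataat
TFRC 3′ UTR, chr3:196050576-196050602, minus strand: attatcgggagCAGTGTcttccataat
TFRC 3′ UTR, chr3:196050511-196050537, minus strand: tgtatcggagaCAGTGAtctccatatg
TFRC 3′ UTR, chr3:196050464-196050490, minus strand: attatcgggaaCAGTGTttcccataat
The ferritin elements lie in their 5′ UTRs, and TFRC carries 4 matches in its 3′ UTR. A match is a description of the sequence.

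Expression is given as the rLog value, a log2 scale with low counts shrunk, on which a difference of 1 is a 2-fold difference. "Rose" and "fell" below mean an adjusted p under 0.05 in limma, with Benjamini-Hochberg adjustment over 19694 tested genes. Replicate values are listed in the order 1, 2, 3. Library medians lay between 7.14 and 7.19, and no pair of libraries was identical. H2O2 8 h replicate 2 lay farthest from its group mean over all genes, at 9.21 against 7.20 and 7.48 for the other H2O2 8 h libraries and at most 6.43 in the other groups (root of the summed squared differences in rLog). Of the line's markers, the median rLog values were 17.1 for VIM, 12.1 for NES, 11.7 for KRT18, 7.90 for KRT8, 6.93 for KRT7, 6.10 for MUC1, 6.07 for SOX9, 3.78 for CDH1, 0.595 for the duct keratin KRT19, -1.34 for CFTR and -1.76 for EPCAM, and the pancreatic factor PDX1 was listed at 0 in every library. Of 12 markers of other cell types, HBA1, HBB, INS and PRSS1 were at 0 in every library, and the others were at most 3.41 except CD68 (9.93 to 10.6), a lysosomal protein abundant in macrophages but found in other cells, which rose by 0.52 at 24 h of NCS. In bulk RNA, fewer cells with a transcript and less of it per cell cannot be told apart.

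**Figure D1:**
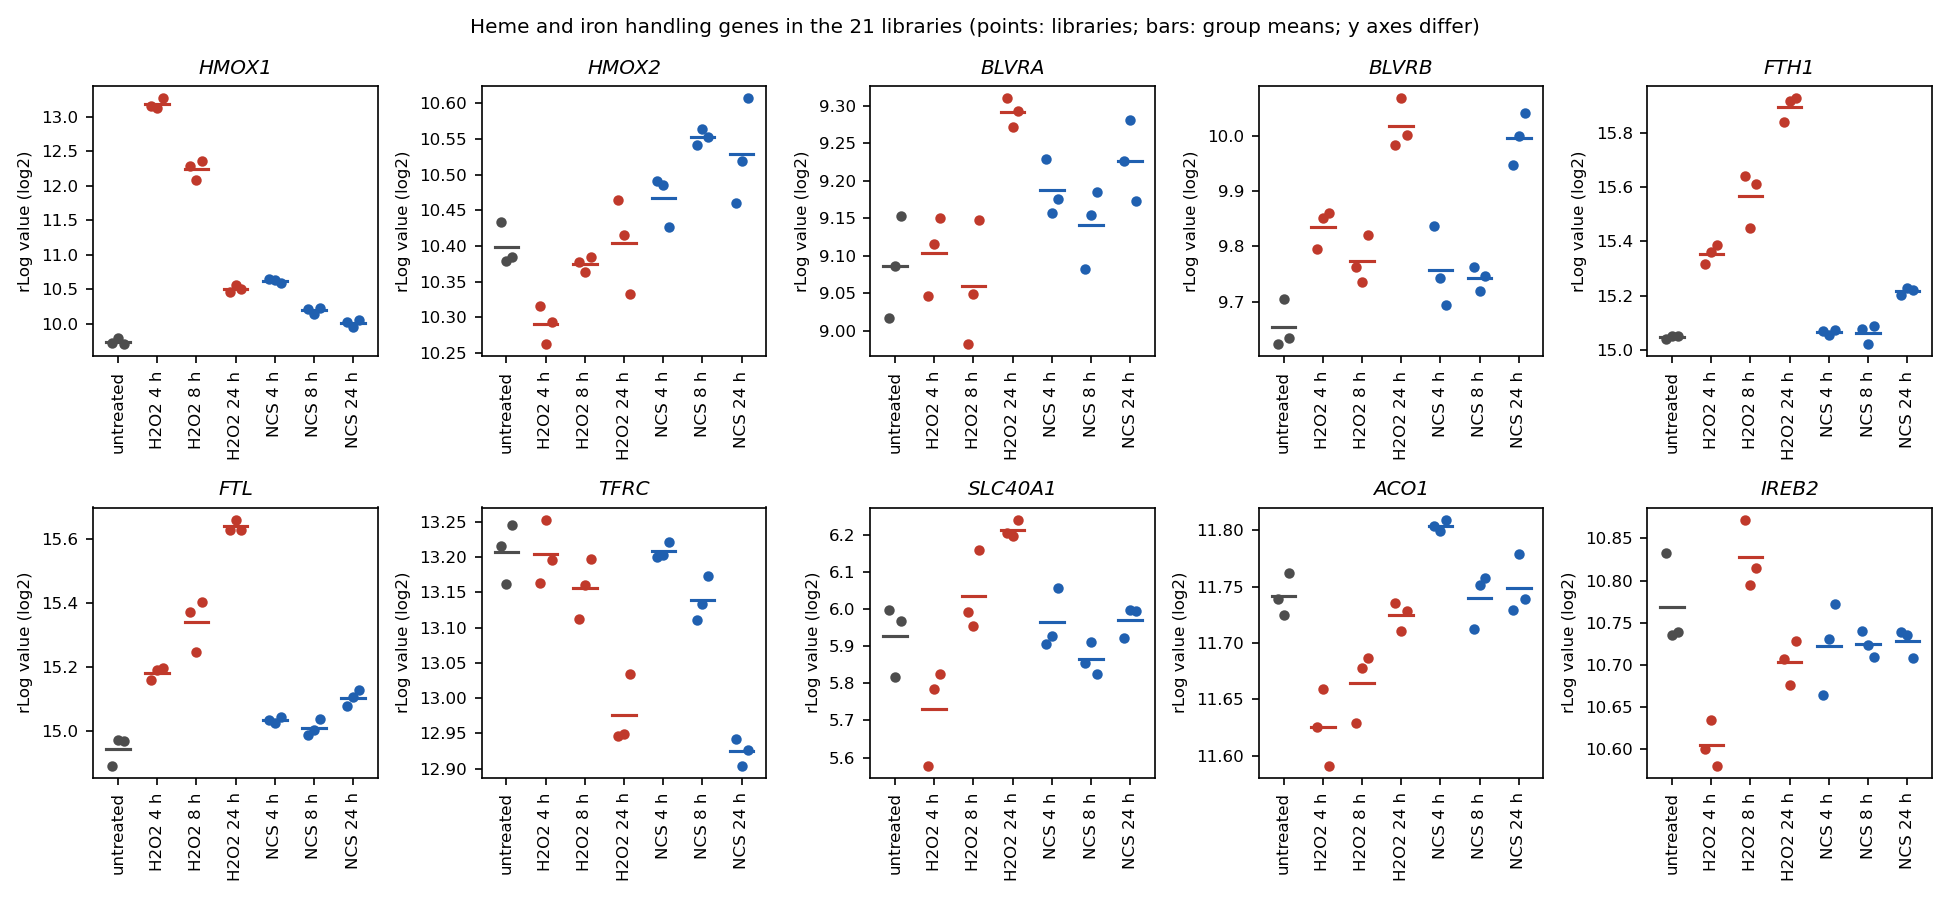
rLog value (log2 scale, y axis of each panel) of the 10 genes in the 21 libraries (points) of the 7 groups (x axis), with group means as lines; the y axis differs between panels and does not start at 0. HMOX1 spans 9.71 to 13.3 and peaks at 4 h of H2O2, while FTH1 and FTL are highest at 24 h of H2O2 and TFRC is lowest at 24 h of both treatments.

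HMOX1 had the largest response of the 10 genes. The untreated libraries stood at 9.73, 9.79 and 9.71. They rose to 13.16, 13.13 and 13.27 after 4 h of H2O2, and then declined to 12.29, 12.08 and 12.36 at 8 h and 10.46, 10.56 and 10.50 at 24 h. All 9 H2O2-treated libraries lay above all untreated libraries, and the ranges of the 3 time points did not overlap. Relative to untreated cells, HMOX1 was 10.9-fold higher at 4 h (95% CI 10.0 to 11.8, log2 difference 3.44, SE 0.05, adjusted p = 3.69e-18), then 5.66-fold higher at 8 h and 1.70-fold higher at 24 h (adjusted p = 1.34e-15 and 1.27e-09). It had the third largest rise of all genes at 4 h and the second largest at 8 h, and was in place 163 at 24 h. Without H2O2 8 h replicate 2, the log2 difference at 8 h was 2.58 rather than 2.50.

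HMOX1 also rose in NCS, by less. Its libraries stood at 10.65, 10.64 and 10.60 after 4 h, 10.21, 10.14 and 10.23 after 8 h and 10.03, 9.95 and 10.05 after 24 h. Again no treated library reached down to the untreated range, and the 4 h libraries stood above the later ones. The rise was 1.85-fold at 4 h (log2 difference 0.88, SE 0.05, adjusted p = 1.87e-09), and it was still 1.37-fold by 8 h and 1.21-fold by 24 h (adjusted p = 4.34e-06 and 0.000539). The comparisons of H2O2 and of NCS with untreated cells share the same 3 untreated libraries. Tested directly at 4 h, HMOX1 in H2O2 exceeded its level in NCS 5.89-fold (log2 difference 2.56, adjusted p = 1.32e-15), and the excess was 4.13-fold by 8 h and 1.41-fold by 24 h (log2 differences 2.05 and 0.49, adjusted p = 6.43e-14 and 2.3e-06). In order of its mean, HMOX1 was highest at H2O2 4 h, then H2O2 8 h, NCS 4 h, H2O2 24 h, NCS 8 h, NCS 24 h and untreated, and no neighbouring pair in this order overlapped. With 3 libraries a group, an exact two-sided permutation test of a single gene cannot give a p below 0.1, which non-overlapping groups reach.

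HMOX2, the constitutive enzyme, had small differences in both treatments. Its untreated libraries were at 10.43, 10.38 and 10.39, and all 21 libraries lay between 10.26 and 10.61. After 4 h of H2O2 they stood at 10.32, 10.26 and 10.29, all below the untreated libraries, a decrease of 0.11 in log2 (SE 0.03, adjusted p = 0.015). That call was lost without untreated replicate 1 or H2O2 4 h replicate 2 and under quantile normalization (adjusted p = 0.159). The differences at 8 and 24 h of H2O2 were -0.02 (95% CI -0.10 to 0.05) and 0.00 (95% CI -0.07 to 0.08). In NCS the HMOX2 libraries stood at 10.54, 10.56 and 10.55 at 8 h and 10.46, 10.52 and 10.61 at 24 h, above every untreated library, and both rises passed (log2 differences 0.15 and 0.13, adjusted p = 0.00253 and 0.00527). The 24 h call was lost when only these groups were fitted (adjusted p = 0.0544). At the matched times HMOX2 was lower in H2O2 than in NCS (log2 differences -0.18, -0.18 and -0.12, adjusted p = 0.000358, 0.0005 and 0.0133), and the last call was lost without H2O2 24 h replicate 3 or NCS 24 h replicate 3. An exon of HMOX2 overlaps NMRAL1 on the opposite strand, and the strand setting of the counting is not given in the sources used here.

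Of the biliverdin reductases, BLVRB rose after both treatments by 24 h. The untreated BLVRB libraries stood at 9.62, 9.70 and 9.63, those of H2O2 24 h at 9.98, 10.07 and 10.00 and those of NCS 24 h at 9.95, 10.00 and 10.04. Both treated groups lay above the untreated one and overlapped each other. The log2 differences from untreated cells were 0.36 in H2O2 and 0.34 in NCS (SE 0.04 each, adjusted p = 1.77e-07 and 4.37e-07), and H2O2 minus NCS was 0.02 (95% CI -0.06 to 0.11). BLVRB was already up at 4 h of H2O2 (log2 difference 0.18, adjusted p = 0.000555). It also passed at 8 h of H2O2 (0.12, adjusted p = 0.0165), a call lost without untreated replicate 1 or 3 or H2O2 8 h replicate 3, and at 4 and 8 h of NCS the differences were 0.10 and 0.09 (adjusted p = 0.0669 and 0.0993).

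BLVRA rose at 24 h of H2O2. Its libraries went from 9.02, 9.09 and 9.15 in untreated cells to 9.31, 9.27 and 9.29, which lay above them with no overlap (log2 difference 0.21, SE 0.04, adjusted p = 0.000817). At 24 h of NCS the libraries were at 9.23, 9.28 and 9.17 (log2 difference 0.14, adjusted p = 0.0158), and this call was lost without untreated replicate 1 or NCS 24 h replicate 2. In direct comparisons of H2O2 with NCS, neither reductase passed at any of the 3 times.

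The ferritin chains rose with time in H2O2. FTH1 was at 15.04, 15.05 and 15.05 in untreated cells. It stood at 15.32, 15.36 and 15.39 after 4 h of H2O2, 15.64, 15.45 and 15.61 after 8 h and 15.84, 15.92 and 15.93 after 24 h. The ranges of the 4 groups followed one another without overlap, with H2O2 8 h replicate 2 the lowest of its group. Relative to untreated cells the log2 differences were 0.31, 0.52 and 0.85 in order of time (SE 0.04 each, adjusted p = 1.62e-06, 3.87e-09 and 9.47e-13), the last a 1.80-fold difference (95% CI 1.71 to 1.90). FTH1 also rose from 4 to 8 h (0.21, adjusted p = 0.000102) and from 8 to 24 h (0.33, adjusted p = 6.68e-07).

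FTL, the light chain, followed the same order. Its untreated libraries were at 14.89, 14.97 and 14.97. The H2O2 libraries stood at 15.16, 15.19 and 15.20 (4 h), 15.37, 15.25 and 15.40 (8 h) and 15.63, 15.66 and 15.63 (24 h), each group above the one before with no overlap. The log2 differences from untreated cells were 0.24, 0.40 and 0.69 (SE 0.03 each, adjusted p = 4.82e-06, 1.31e-08 and 1.49e-12), and the last was 1.62-fold (95% CI 1.55 to 1.69). Without H2O2 8 h replicate 2 the 8 h differences were 0.58 for FTH1 and 0.44 for FTL. At 24 h of H2O2, FTH1 was in place 110 and FTL in place 202 of all genes by rise.

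In NCS FTH1 stayed near the untreated level at 4 and 8 h, and FTL lay slightly above it without passing in the main fit. FTH1 was at 15.07, 15.06 and 15.07 after 4 h and 15.08, 15.02 and 15.09 after 8 h, with log2 differences of 0.02 at both times (95% CI -0.06 to 0.10 and -0.06 to 0.09). FTL differed by 0.09 at 4 h and 0.07 at 8 h (adjusted p = 0.0545 and 0.154), and its libraries lay above every untreated library at both times. The 4 h difference passed with a mean of at least 5 (adjusted p = 0.019) and with a replicate block (0.0409). The 8 h difference passed under quantile normalization (adjusted p = 0.0232). At 24 h of NCS both rose: FTH1 to 15.20, 15.23 and 15.22 (log2 difference 0.17, adjusted p = 0.000927) and FTL to 15.08, 15.11 and 15.13 (0.16, adjusted p = 0.000336). All NCS 24 h libraries lay above the untreated ones and below those of H2O2 at 24 h. H2O2 exceeded NCS at each time, by 0.29, 0.50 and 0.68 for FTH1 (adjusted p = 3.49e-06, 1.01e-08 and 3.52e-10) and by 0.15, 0.33 and 0.53 for FTL (adjusted p = 0.00073, 2.05e-07 and 8.9e-10).

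**Figure D2:**
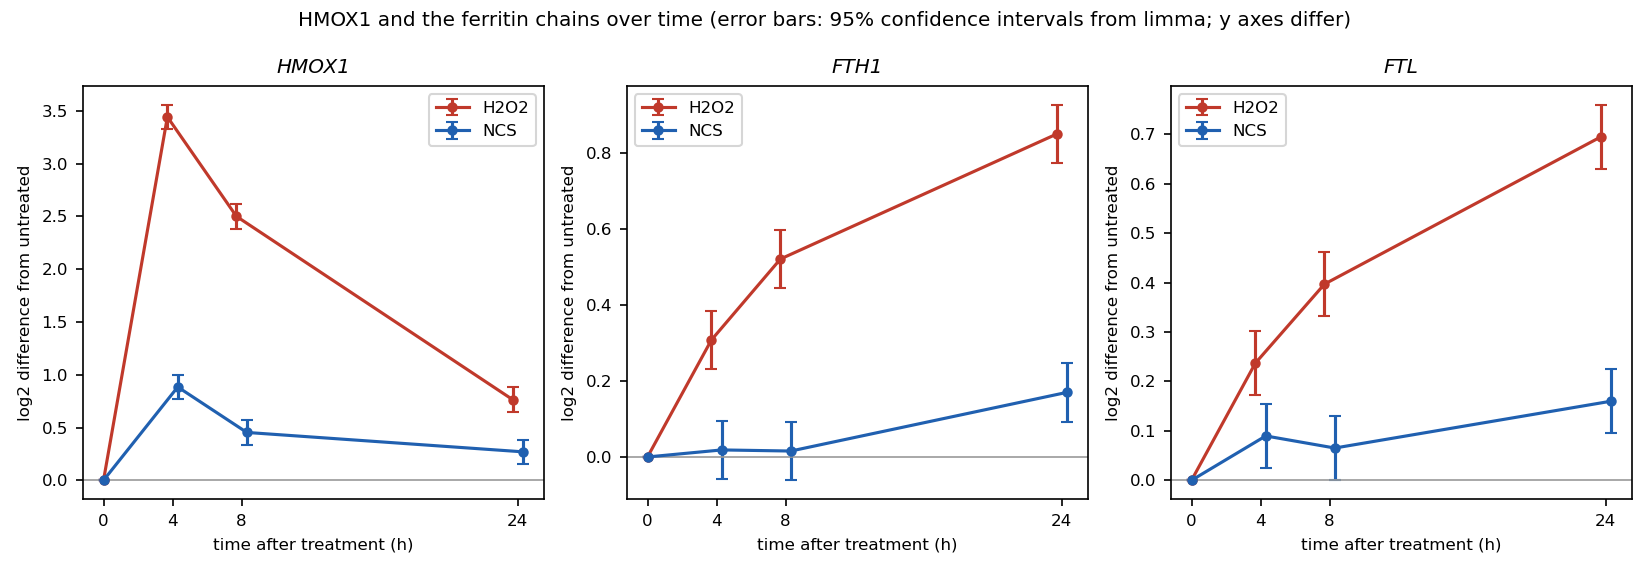
Difference in rLog (log2) from untreated cells (y axis) against hours of treatment (x axis) for HMOX1, FTH1 and FTL in H2O2 and NCS, with 95% confidence intervals from limma and points shifted sideways for legibility. HMOX1 falls from 3.44 at 4 h to 0.76 at 24 h of H2O2 while FTH1 climbs from 0.31 to 0.85 and FTL from 0.24 to 0.69.

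HMOX1 and the ferritin chains all stood above untreated cells at each time of H2O2, but ran in opposite directions after 4 h. HMOX1 fell by 0.94 from 4 to 8 h and by 1.74 from 8 to 24 h (adjusted p = 2.89e-10 and 6.95e-14), while both chains rose over each interval. Over the 21 libraries FTL was the gene most like FTH1 of 11680 genes (Pearson r = 0.988), a description in which libraries of one group share their treatment. The ferritin genes have many near-identical processed copies, so their counts are uncertain where reads could be split. In the table FTH1P3 lay between 0.491 and 0.642 and FTLP10 was at 0 in every library. BEST1, whose exon overlaps FTH1 on the opposite strand, had means of 5.47 in untreated cells, 6.06 at 24 h of H2O2 and 5.93 at 24 h of NCS, and its part in the FTH1 values was not tested.

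TFRC, which brings iron in, fell late in both treatments. Untreated libraries stood at 13.22, 13.16 and 13.24, those of H2O2 24 h at 12.95, 12.95 and 13.03 and those of NCS 24 h at 12.94, 12.90 and 12.93. Both 24 h groups lay below every untreated library, and the NCS group lay just below the H2O2 group. The log2 differences were -0.23 in H2O2 and -0.28 in NCS (SE 0.03 each, adjusted p = 2.76e-06 and 2.25e-07), and H2O2 minus NCS at 24 h was 0.05 (95% CI -0.01 to 0.11, adjusted p = 0.251). At 4 h TFRC differed from untreated cells by 0.00 in both treatments and at 8 h by -0.05 in H2O2 and -0.07 in NCS (adjusted p = 0.197 and 0.108).

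TFRC is abundant in dividing cells, and most markers of proliferation fell too, many of them before TFRC did. At 24 h all 12 proliferation markers tested fell in both treatments, against 19.9% and 18.4% of all genes, with a median log2 difference of -1.82 in H2O2 and -2.00 in NCS. In NCS at 24 h these included the mitotic kinase PLK1 (-2.87), the proliferation antigen MKI67 (-2.73), the cyclin CCNA2 (-2.46) and the topoisomerase TOP2A (-2.32). At 4 h, when TFRC differed by 0.00, 7 of the 12 fell in H2O2 (19.7% of all genes) and 8 in NCS (9.72%). By 8 h, when TFRC had not passed in either treatment in the main fit, 11 fell in H2O2 (18.6% of all genes) and 11 in NCS (13.3%). With aligned library medians TFRC did pass at 8 h of NCS (log2 difference -0.09, adjusted p = 0.0117). The median log2 differences of the markers at 8 h were -0.73 in H2O2 and -0.92 in NCS. The replication clamp PCNA, named after its values were seen, was the 1 marker that rose in each treatment at 4 h (0.34 in H2O2 and 0.55 in NCS). The part of proliferation in the TFRC values was not tested.

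SLC40A1, the exporter, rose at 24 h of H2O2. It stood at 5.998, 5.818 and 5.969 in untreated cells and at 6.20, 6.20 and 6.24 after 24 h of H2O2, above all untreated libraries (log2 difference 0.29, SE 0.07, adjusted p = 0.0021). At 4 h of H2O2 it was at 5.58, 5.79 and 5.83, a log2 difference of -0.20 (adjusted p = 0.0236) in which 1 treated library lay inside the untreated range. This 4 h call was lost without untreated replicate 1, untreated replicate 3 or H2O2 4 h replicate 1. NCS gave differences of 0.04, -0.06 and 0.04 at the 3 times, none of which passed (adjusted p = 0.898, 0.64 and 0.733). Compared with NCS, SLC40A1 in H2O2 was lower at 4 h (-0.23, adjusted p = 0.00916) and higher at 24 h (0.24, adjusted p = 0.0148), with 0.17 at 8 h (adjusted p = 0.0622). The 8 h difference passed with aligned library medians (adjusted p = 0.0143), a mean of at least 5 (0.0333) and a replicate block (0.0461). The 4 h call was lost without H2O2 4 h replicate 1 or NCS 4 h replicate 3, and the 24 h call without H2O2 24 h replicate 3 or NCS 24 h replicate 1.

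The mRNAs of the iron regulatory proteins were lower early in H2O2. ACO1, a cytosolic aconitase that binds iron-responsive elements once it has lost its iron-sulfur cluster, was at 11.74, 11.72 and 11.76 in untreated cells and at 11.63, 11.66 and 11.59 after 4 h of H2O2. The groups did not overlap, and the log2 difference was -0.12 (SE 0.02, adjusted p = 0.000183), with -0.08 by 8 h and -0.02 by 24 h (adjusted p = 0.00711 and 0.636). IREB2, whose protein is degraded when iron is plentiful, went from 10.83, 10.73 and 10.74 to 10.60, 10.63 and 10.58 at 4 h, again with no overlap (log2 difference -0.16, SE 0.03, adjusted p = 0.000209). It was back at 10.87, 10.79 and 10.82 by 8 h (0.06, adjusted p = 0.15).

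In NCS neither regulator passed against untreated cells at any time. The nearest was ACO1 at 4 h, where the libraries stood at 11.80, 11.80 and 11.81, just above the untreated ones (log2 difference 0.06, adjusted p = 0.0518). It stayed above the threshold in 13 of the 21 fits with a library left out, and passed under quantile normalization (adjusted p = 0.0314). Compared with NCS at 4 h, ACO1 in H2O2 was lower (log2 difference -0.18), as was IREB2 (-0.12), with adjusted p = 1.62e-06 and 0.00393. At 8 h ACO1 was lower (-0.08) and IREB2 higher (0.10), with adjusted p = 0.00932 and 0.0125, and both of these calls were lost without H2O2 8 h replicate 1.

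**Figure D3:**
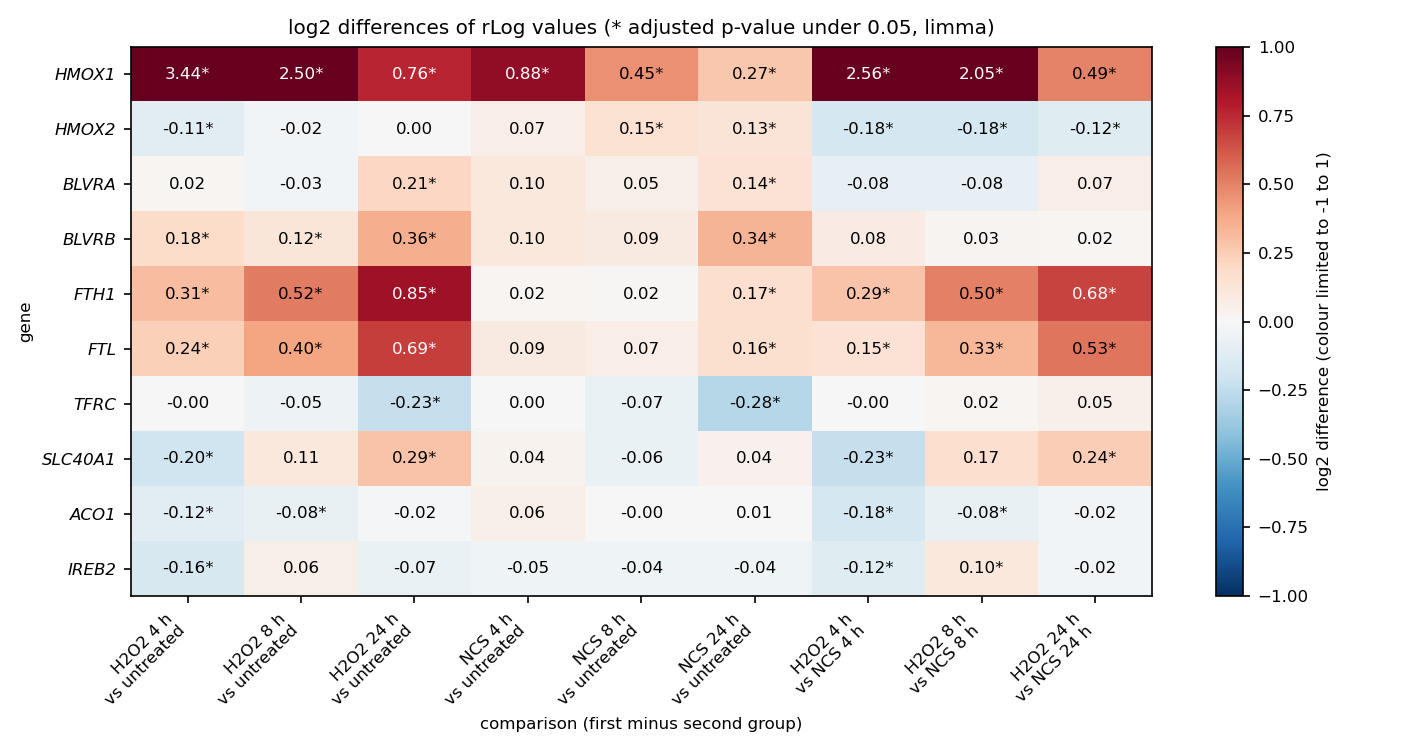
Difference in rLog (log2, colour and printed value) for the 10 genes (rows) in 9 comparisons (columns), H2O2 or NCS against untreated cells and H2O2 against NCS at 4, 8 and 24 h; an asterisk marks an adjusted p under 0.05 in limma and the colour scale is cut at 1. HMOX1 carries the only differences above 1 (3.44, 2.50, 2.56 and 2.05), and TFRC has no asterisk in the comparisons of H2O2 with NCS.

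Counted over the 10 genes, 8 changed at 4 h of H2O2, against 45.9% of all genes, of which 4 rose (26.2% of all genes) and 4 fell (19.7%). At 8 h of H2O2, 5 changed (37.4%), of which 4 rose (18.8%) and 1 fell (18.6%). After 24 h of H2O2, 7 changed (40%), of which 6 rose (20.2%) and 1 fell (19.9%). HMOX1 was the only one of the 10 to change at 4 h of NCS (1 gene, 17.2% of all genes), and HMOX1 and HMOX2 were the 2 that did so at 8 h (23.9%). By 24 h of NCS, 7 had changed (38%), of which 6 rose (19.6%) and 1, TFRC, fell (18.4%). At 24 h of NCS the median absolute log2 difference was 0.15 over the 10 genes and 0.07 over all genes. The corresponding medians at 4, 8 and 24 h of H2O2 were 0.17, 0.09 and 0.26 over the 10 genes and 0.08, 0.06 and 0.07 over all genes.

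Between the treatments at matched times, 7 of the 10 genes differed at 4 h (44.4% of all genes), 6 at 8 h (34.1%) and 5 at 24 h (21.9%). HMOX1, FTH1 and FTL were higher in H2O2 at all 3 times and HMOX2 was lower at all 3. Only HMOX1 passed a log2 difference above 1, in which it stood with 0.696% of all genes at 4 h of H2O2, 0.518% at 8 h, and 0.574% and 0.162% in the comparisons with NCS at 4 and 8 h. Within the H2O2 course, 5 of the 10 changed from 4 to 8 h (45.7% of all genes) and 9 from 8 to 24 h (42.6%), where HMOX2 was the exception and the HMOX1 decrease passed a log2 difference of 1 in size with 0.416% of all genes. Within the NCS course HMOX1 alone changed from 4 to 8 h (13.7% of all genes), and 5 changed from 8 to 24 h (29.9%), namely HMOX1 and TFRC downward and FTH1, FTL and BLVRB upward. Between 8 and 24 h some of these calls rested on single libraries. In NCS, that of HMOX1 was lost without NCS 8 h replicate 3 or NCS 24 h replicate 2, and that of FTL without NCS 8 h replicate 1 or 2 or NCS 24 h replicate 2 or 3. In H2O2, that of ACO1 was lost without H2O2 8 h replicate 1 or H2O2 24 h replicate 1 or 3, and that of SLC40A1 without H2O2 8 h replicate 1 or 2, any H2O2 24 h library, NCS 8 h replicate 1 or NCS 24 h replicate 2 or 3.

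Whether the gap between H2O2 and NCS differed between 4 and 24 h was tested with an interaction term, and 5 of the 10 genes passed, against 39.4% of all genes. The gap in HMOX1 narrowed by 2.06 in log2 (95% CI -2.23 to -1.90, adjusted p = 2.79e-12). In contrast it widened for FTH1 by 0.39 and for FTL by 0.39 (adjusted p = 9.6e-06 and 1.55e-06). For SLC40A1 it went from -0.23 to 0.24, a change of 0.48 (adjusted p = 0.000671), and for ACO1 from -0.18 to -0.02, a change of 0.15 (adjusted p = 0.000471). BLVRA (0.15), IREB2 (0.09), TFRC (0.06), HMOX2 (0.05) and BLVRB (-0.06) did not pass in the main fit. BLVRA did pass with only the groups compared (adjusted p = 0.0309), and TFRC under quantile normalization (0.12, adjusted p = 0.0235).

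The other genes of heme and iron handling moved in both directions. Against untreated cells, 26.2% of all genes rose and 19.7% fell at 4 h of H2O2, and 20.2% rose and 19.9% fell at 24 h, and the list counts below are read against these shares. Of 9 genes of heme synthesis, 2 rose and 4 fell at 4 h of H2O2 and 3 rose and 2 fell at 24 h. ALAS1, the rate-limiting enzyme, rose by 0.13, 0.59 and 0.64 at the 3 times of H2O2 in order (adjusted p = 0.00265, 1.99e-10 and 6.42e-12). It rose in NCS too, by 0.36, 0.28 and 0.10 (adjusted p = 1.76e-07, 1.96e-06 and 0.0168), and was lower in H2O2 than in NCS at 4 h (log2 difference -0.23, adjusted p = 8.91e-06) and higher at 24 h (0.54, adjusted p = 1.05e-09).

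Of 15 genes of heme transport and binding, 2 rose and 4 fell at 4 h of H2O2, including a rise of 0.54 in HPX, which encodes hemopexin, the plasma heme carrier. HPX was low, with a mean rLog of 3.92 over the libraries, as was SLC11A1, named next (3.63). Of 18 genes of iron uptake, reduction and transport, 6 rose and 3 fell at 4 h of H2O2, with 0.61 for the metal transporter SLC11A1, and at 24 h 4 rose and 6 fell. The medians at 4 h of H2O2 were -0.07 for heme synthesis, 0.00 for heme transport and -0.00 for iron uptake, against 0.00 over all genes.

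Of 13 tested genes of iron export, storage turnover and systemic control, 4 rose and 1 fell at 4 h of H2O2 and 1 rose and 3 fell at 24 h. The gene that rose at 24 h was EPAS1, the oxygen-regulated transcription factor HIF-2 alpha, whose log2 difference was 1.16 in H2O2 (SE 0.04, adjusted p = 1.27e-13) and 0.58 in NCS. Of 22 genes of iron-sulfur cluster assembly, 7 rose and 5 fell at 24 h of H2O2, and the scaffold ISCU rose by 0.60 in H2O2 and 0.55 in NCS. HMOX1 differed by 0.76 in H2O2 and 0.27 in NCS at the same time. In NCS at 24 h, where 19.6% of all genes rose and 18.4% fell, the counts of genes that rose and fell were 4 and 2 of 9 for heme synthesis, 4 and 3 of 15 for heme transport, 2 and 4 of 18 for iron uptake, 5 and 2 of 13 for iron export and 4 and 6 of 22 for iron-sulfur assembly.

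HMOX1 and the ferritin genes are textbook targets of NRF2 and BACH1, and the part of these factors in their values was not tested. Of 22 other NRF2 target genes, 13 rose and 1 fell at 4 h of H2O2 (26.2% and 19.7% of all genes), with a median log2 difference of 0.11. At 8 h of H2O2 18 rose and none fell (18.8% and 18.6% of all genes, median 0.32), and by 24 h 16 rose and 1 fell (20.2% and 19.9%, median 0.27). In NCS, 6 rose and 1 fell at 4 h (7.47% and 9.72% of all genes, median 0.03), 3 rose and 1 fell at 8 h (10.5% and 13.3%, median 0.02), and by 24 h 4 rose and 3 fell (19.6% and 18.4%, median 0.01).

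Among these targets the exporter ABCC2 rose by 1.71 at 4 h of H2O2 and differed by -0.03 at 4 h of NCS (adjusted p = 0.963). The thioredoxin reductase TXNRD1 rose by 1.06 at 8 h of H2O2 and differed by -0.14 at 8 h of NCS (adjusted p = 0.0725). OSGIN1, an oxidative stress-induced growth inhibitor, rose in both treatments, by 0.56 and 1.13 at 4 and 8 h of H2O2 and by 0.59 and 0.48 at 4 and 8 h of NCS (adjusted p = 8.81e-06 and 4.89e-05 in NCS). Of the 8 regulators, 5 rose and 2 fell at 4 h of H2O2 (26.2% and 19.7% of all genes). Those that rose included the small MAF partners of NRF2 and BACH1, MAFK, MAFG and MAFF (1.09, 1.08 and 1.02), which differed by 0.20, 0.04 and 0.07 after 4 h of NCS. At 4 h of NCS 1 of the 8 regulators rose and 1 fell (7.47% and 9.72% of all genes). These lists are textbook knowledge and were set down with the HMOX1 rise known.

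**Figure D4:**
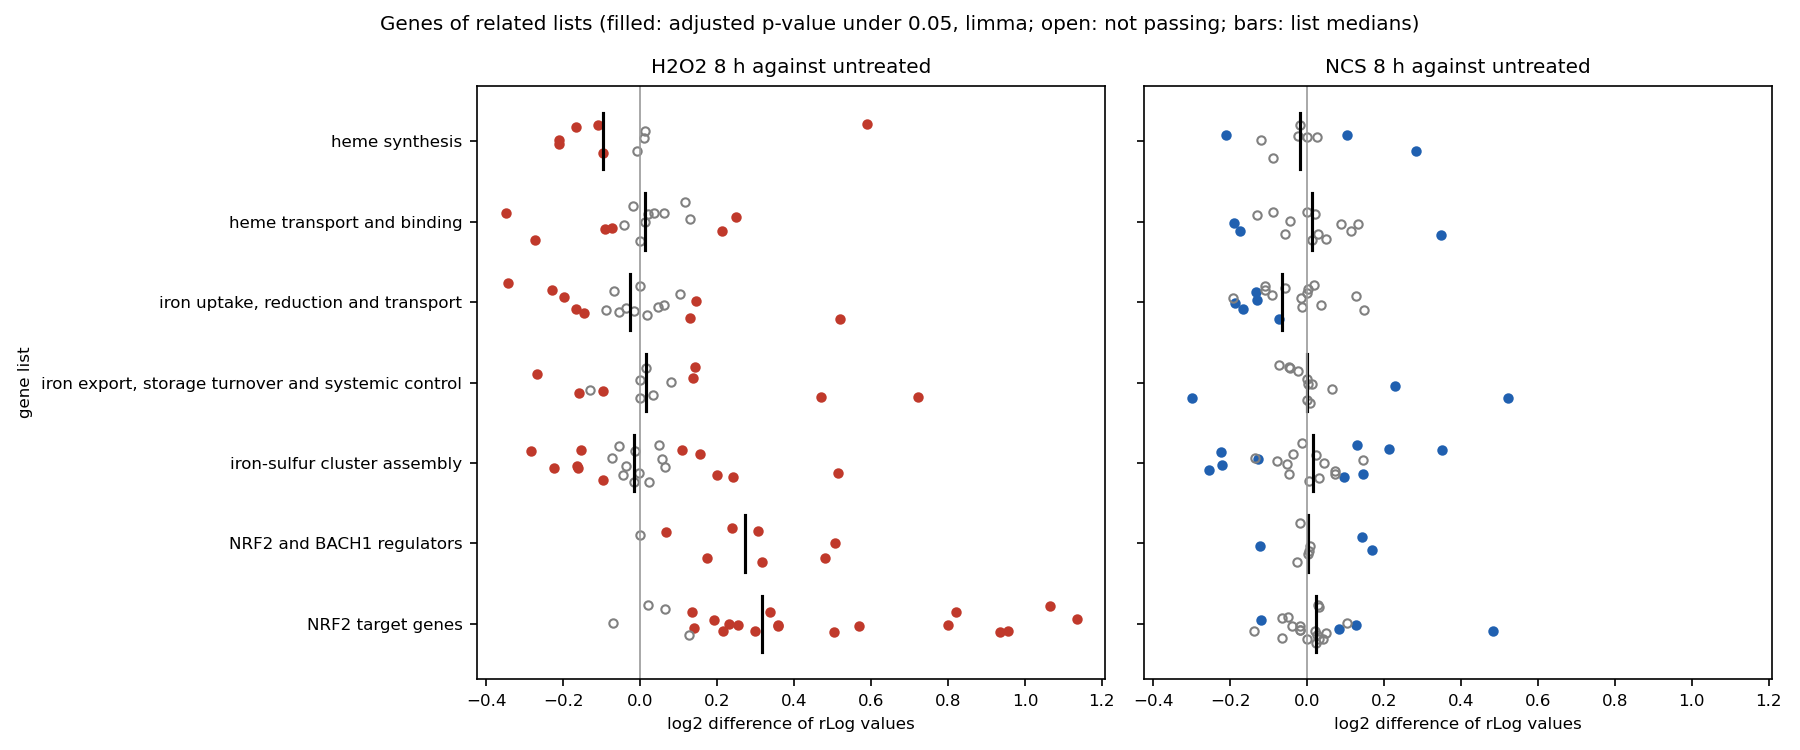
Difference in rLog (log2, x axis) from untreated cells of each tested gene (points), by gene list (y axis), at 8 h of H2O2 (left) and 8 h of NCS (right). Filled points have an adjusted p under 0.05 in limma, open points do not, and bars are list medians. The NRF2 target genes rise in H2O2 (18 of 22 at 8 h), and 3 of 22 rise at 8 h in NCS.

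By Pearson correlation over the 21 libraries, the 5 genes of 11680 whose pattern was most like that of HMOX1 were KLHL21 (r = 0.989), HSPA6 (0.981), RPL24 (0.978), DANCR (0.975) and FEM1B (0.974), and libraries of one group share their treatment. KLHL21, an adaptor of a CUL3 ubiquitin ligase, had log2 differences from untreated cells of 1.14, 0.86 and 0.31 over the H2O2 course and of 0.32 at 4 h of NCS. HSPA6, a stress-inducible HSP70 chaperone, had 2.62, 2.30 and 0.41 in H2O2 and 0.48 at 4 h of NCS. RPL24, a ribosomal protein, had the same shape at a much smaller size (0.17 at 4 h of H2O2 and 0.06 at 4 h of NCS). The noncoding RNA DANCR differed by 0.64 and FEM1B, a CUL2 ubiquitin ligase receptor, by 0.51 at 4 h of H2O2.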

How the data were processed

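RNA of 21 hTERT-HPNE libraries was made with a stranded mRNA kit and sequenced as paired ends. The authors aligned reads with HISAT2, counted them with HTSeq and deposited 1 table of log2 values, the regularised log (rLog) of DESeq2. The submitters' processing notes name hg19; tool versions, the gene annotation and the strand setting are not given in the sources used here. The deposited values carry no counts, so depth is unknown, and rLog shrinks differences of low genes. Of 23368 genes, 3674 were at 0 in every library, and 19694 were fitted with limma 3.58.1 (R 4.3.3) in 1 model of 7 groups with a mean-dependent prior variance. The tests were 13 two-group contrasts and 1 interaction, with Benjamini-Hochberg adjustment over all tested genes and confidence intervals of 95%. The fit was tested on simulated data. Genes outside the 10 were named by rule: in each list the genes past a log2 difference of 1, at most 4, or otherwise the largest change that passed, and the 5 genes most correlated with HMOX1 among those with a mean of at least 5. The 10 genes, the lists and the tests were chosen with earlier results of these data known. The labels only number the replicates, and the study's methods call them biological. Alternatives were aligned library medians, quantile normalization, a mean of at least 5, only the groups compared, a replicate block, a log2 difference of 0.58 and each library left out. GENCODE v29 (GRCh38) gave sequences and positions, and no coordinate of hg19 was used.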

Additional observations from a re-analysis of the deposited data

Results flagged for a closer look

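For 5 of the 10 genes the gap between H2O2 and NCS differed between 24 h and 4 h in limma's interaction test, against 39.4% of all genes. The change in the gap, in log2, was -2.06 for HMOX1, 0.390 for FTH1, 0.387 for FTL, 0.477 for SLC40A1 and 0.154 for ACO1. The HMOX1 gap closed from 2.56 to 0.49 while those of FTH1 and FTL opened from 0.29 to 0.68 and from 0.15 to 0.53.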

How the results depend on the processing

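Of 48 calls for the 10 genes in the 9 comparisons with untreated cells or between the treatments, 37 kept their direction and their side of the threshold under all 5 alternative fits and with each library left out, and none of 73 calls in all 14 contrasts changed sign. HMOX1, FTH1 and FTL kept every call of their rise in H2O2, with HMOX1 between 3.43 and 3.44 at 4 h and FTH1 between 0.83 and 1.00 at 24 h over the alternative fits. Depth is unknown and limits what can be said of SLC40A1. The replicate numbers showed little sign of pairing: deviations of same-numbered libraries had a mean correlation of 0.0274. Single pairs in the comparisons ran from -0.113 to 0.213, and no comparison had every pair above 0.1. The mean for different numbers (-0.0137) is no separate reference, because the deviations within a group cancel. The replicate block moved the count of changed genes at 4 h of NCS from 1 to 2 (FTL, adjusted p = 0.0409).

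The count at 4 h of NCS was 3 under quantile normalization and 3 with a mean of at least 5, the count at 8 h of NCS was 4 under quantile normalization, and the count at 8 h of H2O2 was 3 with only the groups compared, where the residual degrees of freedom are fewer. Past a log2 difference of 1, quantile normalization gave 1 gene (FTH1, 1.00) at 24 h of H2O2. With a log2 difference of 0.58 the counts were 3 at 24 h of H2O2, 1 at 4 h of NCS, 1 for H2O2 against NCS at 24 h and 1 for H2O2 from 4 to 8 h. With each library left out, the count ranged from 1 to 3 at 4 h of NCS, 3 to 5 for H2O2 against NCS at 24 h (lowest without H2O2 24 h replicate 3), 1 to 2 for NCS from 4 to 8 h and 3 to 5 for NCS from 8 to 24 h (lowest without NCS 24 h replicate 2). With only the groups compared, calls were lost for SLC40A1 (adjusted p = 0.125) at 4 h and ACO1 (0.069) and BLVRB (0.0561) at 8 h of H2O2, BLVRA (0.0565) and HMOX2 (0.0544) at 24 h of NCS, and between treatments SLC40A1 at 4 h (0.058), ACO1 at 8 h (0.0836) and HMOX2 at 24 h (0.141), and from 8 to 24 h of H2O2 SLC40A1 (0.0799) and ACO1 (0.0981). Between treatments at 8 h, ACO1 was also lost with aligned medians (0.108) and IREB2 under quantile normalization (0.0573). From 8 to 24 h, ACO1 in H2O2 was also lost with aligned medians (0.192), and SLC40A1 in H2O2 (0.0611) and FTL in NCS (0.0797) under quantile normalization.

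Differences that changed sign were all near 0 and passed in no setting; the cause was not tested. With aligned medians they were -0.014 for HMOX2 at 24 h of H2O2, -0.012 for TFRC at 4 h and -0.0075 for FTH1 at 8 h of NCS, -0.0046 for BLVRB between treatments at 24 h, -0.0082 for IREB2 from 4 to 8 h and 0.0064 for HMOX2 from 8 to 24 h of NCS. Under quantile normalization they were 0.030 for ACO1 at 24 h of H2O2, -0.024 for FTH1 and -0.0052 for TFRC at 4 h, 0.032 for ACO1 at 8 h and 0.0029 for IREB2 at 24 h of NCS, -0.026 for TFRC at 8 h and 0.0059 for ACO1 at 24 h between treatments, 0.0024 for BLVRB, 0.026 for FTH1 and 0.016 for FTL from 4 to 8 h and -0.0080 for ACO1 from 8 to 24 h of NCS.

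With a library left out, the ranges that crossed 0 were as follows. Against untreated cells in H2O2 they were -0.016 to 0.052 for BLVRA and -0.028 to 0.017 for TFRC at 4 h, -0.070 to 0.012 for BLVRA at 8 h and -0.025 to 0.040 for HMOX2 at 24 h. In NCS they were -0.022 to 0.019 for TFRC, -0.020 to 0.071 for SLC40A1, -0.076 to 0.012 for HPX and -0.075 to 0.0016 for ABCC2 at 4 h, -0.010 to 0.012 for ACO1 at 8 h, and -0.012 to 0.078 for SLC40A1 and -0.0078 to 0.017 for ACO1 at 24 h. Between the treatments they were -0.028 to 0.016 for TFRC at 4 h, -0.0032 to 0.039 for TFRC at 8 h and -0.0042 to 0.044 for BLVRB at 24 h. From 8 to 24 h of H2O2 the range was -0.0014 to 0.064 for HMOX2. From 4 to 8 h of NCS they were -0.046 to 0.025 for BLVRB, -0.016 to 0.018 for FTH1 and -0.027 to 0.027 for IREB2, and from 8 to 24 h -0.063 to 0.011 for HMOX2, -0.0062 to 0.019 for ACO1 and -0.0039 to 0.013 for IREB2.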
